A study of Mus musculus with 2 samples.

Results

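Messenger RNA of 8 chemokine genes was followed in single cells of the mouse testis: Ccl2, Ccl7, Ccl8, Ccl3, Ccl4, Cxcl1, Cxcl2 and Cxcl10. They are 8 of the 41061 genes with a count in the series. They were selected on their measured levels in Leydig cells and macrophages of these same libraries. Their levels here are therefore a description, and no test was made. Cells came from the testes of mice aged 2 months (young) and 24 months (aged), with 1 library for each age, captured and sequenced on the BD Rhapsody system, in which each cell shares a microwell with a barcoded bead. All mice were anesthetized with Avertin, and the testes were freed of their capsule, minced and digested with accutase. Strain and number of mice are not given in the sources used here, and neither library carries a stated treatment or allele beyond age. With 1 library per age, a difference between the libraries has no replicate check. Age cannot be told apart from the mice, the dissociation or the run.

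Chemokines are small secreted proteins that steer white blood cells along a gradient through receptors coupled to G proteins. Ccl2 and Ccl7 draw monocytes through Ccr2, Ccl8 draws monocytes and lymphocytes and in the mouse acts through Ccr8, and Ccl3 and Ccl4 draw macrophages and T cells. Cxcl1 and Cxcl2 draw neutrophils through Cxcr2, and Cxcl10 draws activated T cells through Cxcr3 and is a classical target of interferon. Leydig cells make testosterone between the seminiferous tubules and lie in close contact with the resident macrophages of the testis, the most abundant immune cells there. Many of these chemokine genes are switched on within minutes to hours by the transcription factors NF-kB and, for Cxcl10, the interferon regulatory factors.

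The genes lie in 2 groups in GRCm38 (GENCODE M21). On chromosome 11 lie Ccl2 (82035571 to 82037453), Ccl7 (82045712 to 82047525), Ccl8 (82115185 to 82116799), Ccl4 (83662584 to 83664683) and, on the minus strand, Ccl3 (83647844 to 83649355). On chromosome 5 lie Cxcl1 (90891241 to 90893115), Cxcl2 (90903871 to 90905938) and, on the minus strand, Cxcl10 (92346638 to 92348889). Of the 50-base words in its transcripts, Cxcl2 shares 5.84% with Cxcl3, so that reads there may be split between them, and the other 7 genes share none with another gene. For 5 of the 8 genes RefSeq's table of promoters (build GRCm38.p6) has an entry: Cxcl1, Cxcl2, Cxcl10, Ccl8 and Ccl3. Cxcl1, Cxcl2 and Cxcl10 were higher in aged Leydig-like cells, while counts of Ccl8, and also those of Cxcl2, were mostly in macrophage-like cells. The sequences upstream of these 4 genes are shown. Each runs 5′ to 3′ on the gene's strand over 220 bases and ends 30 bases before the start, with matches to the NF-kB consensus and to a pair of interferon response half-sites (GAAA, any 2 bases, GAAA) in capitals.
Cxcl1 (chr5:90890995-90891214, plus strand): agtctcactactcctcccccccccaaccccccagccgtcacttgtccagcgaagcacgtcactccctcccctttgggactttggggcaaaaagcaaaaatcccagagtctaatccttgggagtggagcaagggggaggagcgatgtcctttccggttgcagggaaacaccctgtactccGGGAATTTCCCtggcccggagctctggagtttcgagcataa
Cxcl2 (chr5:90903649-90903868, plus strand): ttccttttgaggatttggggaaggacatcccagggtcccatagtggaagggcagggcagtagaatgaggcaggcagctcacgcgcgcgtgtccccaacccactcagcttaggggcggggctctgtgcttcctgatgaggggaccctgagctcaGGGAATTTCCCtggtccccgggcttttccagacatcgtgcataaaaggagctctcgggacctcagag
Cxcl10 (chr5:92348920-92349139, minus strand): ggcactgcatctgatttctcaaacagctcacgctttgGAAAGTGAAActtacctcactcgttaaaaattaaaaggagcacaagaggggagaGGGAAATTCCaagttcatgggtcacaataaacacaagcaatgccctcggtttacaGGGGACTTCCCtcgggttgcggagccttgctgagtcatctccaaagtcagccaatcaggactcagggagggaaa
Ccl8 (chr11:82114935-82115154, plus strand): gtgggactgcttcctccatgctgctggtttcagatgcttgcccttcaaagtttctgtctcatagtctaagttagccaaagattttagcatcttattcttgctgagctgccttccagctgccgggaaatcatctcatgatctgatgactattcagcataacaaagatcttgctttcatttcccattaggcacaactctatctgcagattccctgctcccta

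Motifs were searched on both strands of the 250 bases before each start. The word GGGAATTTCC, which fits the NF-kB consensus, starts 71 bases before Cxcl1 and 97 bases before Cxcl2. The word was read from the Cxcl1 promoter itself, so that its presence there was fixed in advance. It occurs in 28 of 32851 promoters of the same length (0.0852%). The NF-kB consensus, which overlaps that word, has a match in 7.25% of these promoters and also in Cxcl10, starting 159, 104 and 103 bases before the start, the last 2 overlapping. The pair of GAAA half-sites starts 213 bases before Cxcl10 and has a match in 2.98% of promoters. These letters were not found in the windows of Ccl8 and Ccl3. These distances, and the end of each printed stretch, are counted from the start in RefSeq's table, which for Ccl3, Cxcl1 and Cxcl2 is not the start of the GENCODE gene given above. A match describes the sequence and shows no binding.

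After filtering, 2734 young and 5689 aged cells were analysed, with medians of 15629.5 and 11381 counts per cell, from files of 53413783 and 66390904 counts. The labels call the cells stroma cells, but germ cell classes made up 50.7% of young cells and 64.8% of aged ones. Leydig-like cells numbered 1090 and 577, macrophage-like cells 171 and 129, fibroblast-like cells 17 and 130, and germ cells 1385 and 3687. Cells in unnamed clusters were 2.30% of all in the young file and 19.5% in the aged file. The lowest total of a cell was 3215 counts in the young file and 186 in the aged file. The 2 files share 35 cell indices, 32 of them among the analysed cells. Clusters were formed without chemokine ligand and receptor genes, so that no member helped to define a class. The 12 Leydig markers were all detected in Leydig-like cells and summed to 25888 CPM for young and 18716 CPM for aged cells. CPM is a gene's share of all counts of a class, scaled to a total of 1e+06. The 16 macrophage markers were all detected in macrophage-like cells (25943 and 21507 CPM), and the 12 fibroblast markers in fibroblast-like cells (41612 and 38047 CPM). Intervals in parentheses are exact 95% intervals that cover counting error only.

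Each chemokine had a main source that was the same in both libraries. Leydig-like cells held 92.8% of all Cxcl1 counts when young and 85.8% when aged, and 89.8% and 85.0% of all Cxcl10 counts. Macrophage-like cells, 6.25% and 2.27% of the cells, held 96.9% and 95.7% of the Ccl7 counts, 91.4% and 94.9% of Ccl8, 97.0% and 96.0% of Ccl3, and 96.3% and 93.5% of Ccl4. They also held 78.3% and 82.0% of the Cxcl2 counts. Ccl2 was divided otherwise in the aged library. Its share in Leydig-like cells was 2.84% in the young library and 24.1% in the aged one, and its share in macrophage-like cells 89.2% and 72.4%.

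**Figure D1:**
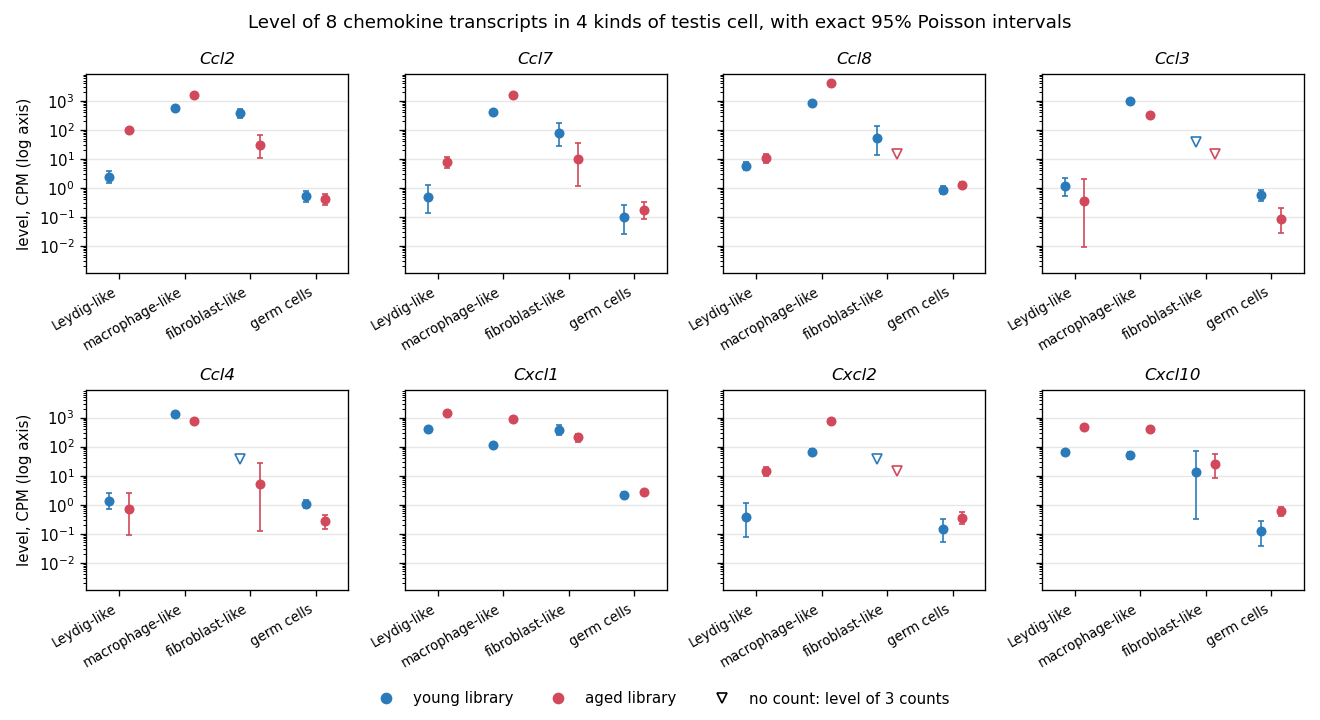
Level of each chemokine in CPM (log axis) in Leydig-like, macrophage-like and fibroblast-like cells and germ cells of the young and aged libraries, with exact 95% Poisson intervals as bars. Triangles mark a class with no count, drawn at the level of 3 counts. Ccl2 in Leydig-like cells lay at 2.39 CPM for young and 96.3 CPM for aged cells, while germ cells stayed under 3 CPM for all 8 genes.

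In Leydig-like cells the neutrophil chemokine Cxcl1, the T cell chemokine Cxcl10 and the monocyte chemokine Ccl2 were higher in the aged library, each at its class-wide level. Cxcl1 was at 393 CPM (379 to 407) for young and 1468 CPM (1423 to 1513) for aged cells, an aged over young ratio of 3.74 (3.57 to 3.92). Cxcl10 was at 67.7 CPM (62.1 to 73.7) and 493 CPM (468 to 520), a ratio of 7.28 (6.59 to 8.06). Ccl2 was at 2.39 CPM (1.44 to 3.74, 19 counts) and 96.3 CPM (85.1 to 109, 267 counts), a ratio of 40.3 (25.3 to 67.9). In all 3 the intervals of the libraries did not overlap. Cxcl2, the other neutrophil chemokine, rested on 3 young and 39 aged counts (0.378 and 14.1 CPM), and the monocyte chemokine Ccl7 on 4 and 22 counts (0.504 and 7.93 CPM).

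The other 3 genes were scarce in Leydig-like cells. Ccl8 was at 5.79 CPM (46 counts) and 10.5 CPM (29 counts), a ratio of 1.81 (1.09 to 2.94). This ratio ran from 1.33 to 7.80 over 15 alternatives, the highest with the lowest young total of 3215 counts applied to both libraries. Ccl3 had 9 young and 1 aged count, and Ccl4 11 and 2 counts. By size alone, 5 of the 8 members (Ccl2, Ccl7, Cxcl1, Cxcl2 and Cxcl10) were at least 2-fold higher in the aged library, where 4.51% of 15313 genes with 10 or more counts were. Ccl3, with 10 counts in all, was at least 2-fold lower, where 7.48% of genes were. With 1.5-fold as the size, 6 members were higher, against 10.5%, and 2 lower, against 15.2%. At 4-fold 4 were higher, against 0.855%, and 0 lower, against 1.69%. With genes of 1 or more counts the members' counts were again 5 and 1, against 8.72% and 5.44%. The median log2 ratio was 2.38 over the 8 members and -0.04 over all genes tested. Of the 4 members with 50 or more counts, 3 were at least 2-fold higher, against 1.93% of genes that deep, and 0 lower, against 2.85%. The members were listed with these values known, so the counts are a description.

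Germ cells showed how much RNA of these genes appears in cells that should lack it. In young Leydig-like cells Ccl2 had 17.4 counts per 1000 cells, against 15.9 in young germ cells. Cxcl2 had 2.75 against 4.33 per 1000 cells, and Ccl7 3.67 against 2.89. Per cell these 3 genes were thus near the germ cell values in young Leydig-like cells, whose median depth was 6942 counts against 29144. In CPM young Leydig-like cells were higher for Ccl2, at 2.39 (1.44 to 3.74) against 0.531 (0.333 to 0.804), while the intervals overlapped for Cxcl2 and Ccl7. In the aged library the 3 stood well above it, with 463 against 6.24 counts per 1000 cells for Ccl2, 67.6 against 5.42 for Cxcl2 and 38.1 against 2.71 for Ccl7. Cxcl1 stood above germ cells in both libraries, with 2861 against 64.3 counts per 1000 young cells and 7052 against 42.3 per 1000 aged cells. Cxcl10 did so too, with 494 against 3.61 and 2371 against 9.22. Ccl3 and Ccl4 in young Leydig-like cells (8.26 and 10.1 counts per 1000 cells) lay under the germ cells (16.6 and 31.0), while in CPM they lay above them, at 1.13 against 0.555 and 1.38 against 1.04, with overlapping intervals. With the level in spermatocyte-like cells subtracted in CPM, the Leydig ratio was 44.5 for Ccl2, 3.75 for Cxcl1 and 7.29 for Cxcl10. Young spermatocyte-like cells had a median of 30664.5 counts, against 6942 in young Leydig-like cells. A background that is alike per cell is thus removed only in part. The 44.5 for Ccl2, whose young counts per cell were near those of germ cells, is therefore not a ratio free of background.

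The share of Leydig-like cells with a count moved in the same way. Cxcl1 was found in 558 of 1090 young cells (51.2%, 48.2 to 54.2) and 431 of 577 aged cells (74.7%, 70.9 to 78.2). Cxcl10 was found in 12.8% (10.8 to 14.9) and 40.4% (36.3 to 44.5), and Ccl2 in 1.19% (0.637 to 2.03) and 14.4% (11.6 to 17.5). These shares were higher in the aged library although its Leydig-like cells were shallower, with a median of 4750 counts against 6942. In germ cells, which should lack Cxcl1, 5.49% of young cells and 3.85% of aged cells had a count of it, at median depths of 29144 and 15956 counts. Each cell was then thinned to 2000 counts, which left out 52 aged Leydig-like cells and 0 young ones. The shares became 35.7% and 62.7% for Cxcl1, 7.06% and 31.8% for Cxcl10, and 0.459% and 9.71% for Ccl2. Ccl7 and Cxcl2 reached 1.52% and 1.90% of thinned aged cells and 0 of 1090 thinned young cells. With 3 cells taken as the limit for a count of 0, that is up to 0.275% of cells with a count at this depth, and not a limit on cells that express the gene. At least 1 of the 8 genes was found in 56.1% of young cells and 79.0% of aged ones, and 3 or more in 1.10% and 12.3%.

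**Figure D2:**
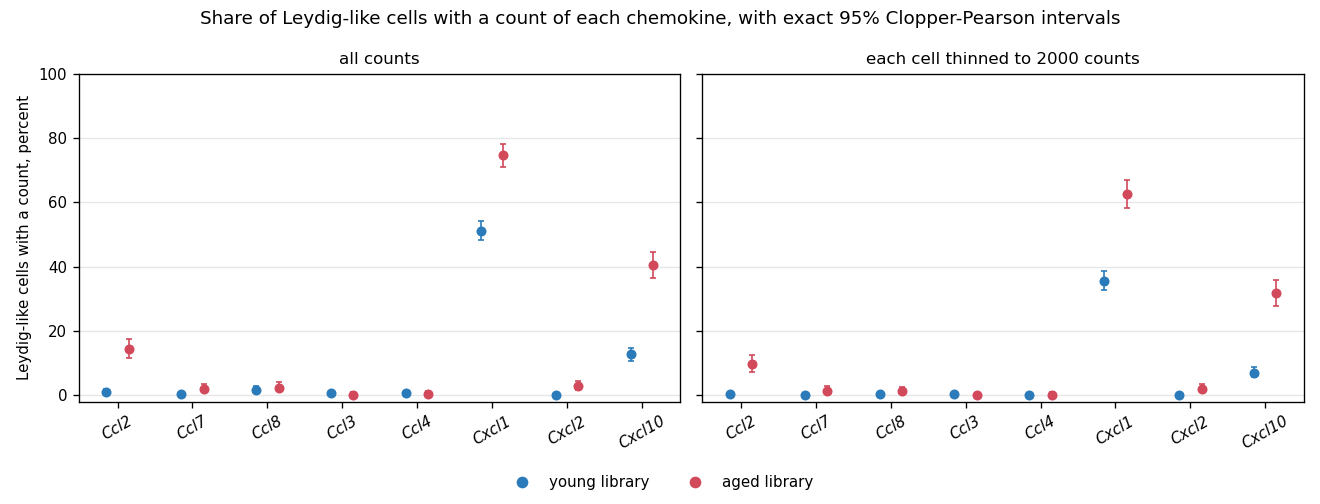
Percent of Leydig-like cells with at least 1 count of each chemokine in the young and aged libraries, from all counts (left) and with each cell thinned to 2000 counts (right), with exact 95% Clopper-Pearson intervals. Cxcl1, Cxcl10 and Ccl2 were found in more aged than young cells in both panels, and the other 5 genes in under 3% of cells.

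The counts were unevenly spread over the Leydig-like cells. The 10 aged cells with most Ccl2 held 39.3% of its counts there, with up to 21 counts in a cell. For Cxcl1 the 10 highest cells held 10.3%, with up to 50 counts in a cell, and for Cxcl10 17.6%, with up to 35. Cells with 10 or more counts of Cxcl1 numbered 97 of 1090 young and 156 of 577 aged cells. Counts of Ccl2 were thus found in a minority of aged cells, and those of Cxcl1 in most of them. A cell without a count may still express the gene.

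Leydig-like cells formed 2 clusters that split largely by library, so that the class-wide ratios compare mostly different clusters. Cluster 1, led by the kallikrein genes Klk1b21, Klk1b27 and Klk1b24, held 1036 young and 38 aged cells. Cluster 4 held 54 young and 539 aged cells, and Cxcl10 and Cxcl1, which took no part in the clustering, were among its 10 leading genes. Such a cluster can stand for its library instead of a kind of cell. Within cluster 4 Cxcl1 was at 470.4 CPM (402 to 547) for young and 1514 CPM (1467 to 1562) for aged cells, a ratio of 3.22 (2.76 to 3.78). Cxcl10 was at 86.3 CPM (58.6 to 122) and 513 CPM (486 to 541), a ratio of 5.95 (4.17 to 8.79). Both lay below their class-wide ratios, with overlapping intervals. Ccl2 was at 16.7 CPM (6.13 to 36.3, 6 counts) and 101.6 CPM (89.8 to 115), a ratio of 6.08 (2.76 to 16.7), far below the class-wide 40.3. In this cluster 4 of 6 members with 10 or more counts were at least 2-fold higher, against 8.02% of genes, and 0 lower, against 6.85%.

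In cluster 1 the aged cells were few and the differences smaller. Cxcl1 was at 389 CPM (375 to 403) in 1036 young cells and 679 CPM (555 to 822) in 38 aged cells, a ratio of 1.75 (1.42 to 2.12). Cxcl10 was at 66.8 and 162 CPM, a ratio of 2.42 (1.55 to 3.61). Ccl2 had 13 young and 1 aged count. By size, 2 of 5 members with 10 or more counts were at least 2-fold higher, against 12% of genes, and 0 lower, against 5.47%. They were Cxcl10 and Ccl2, the latter on its 1 aged count.

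**Figure D3:**
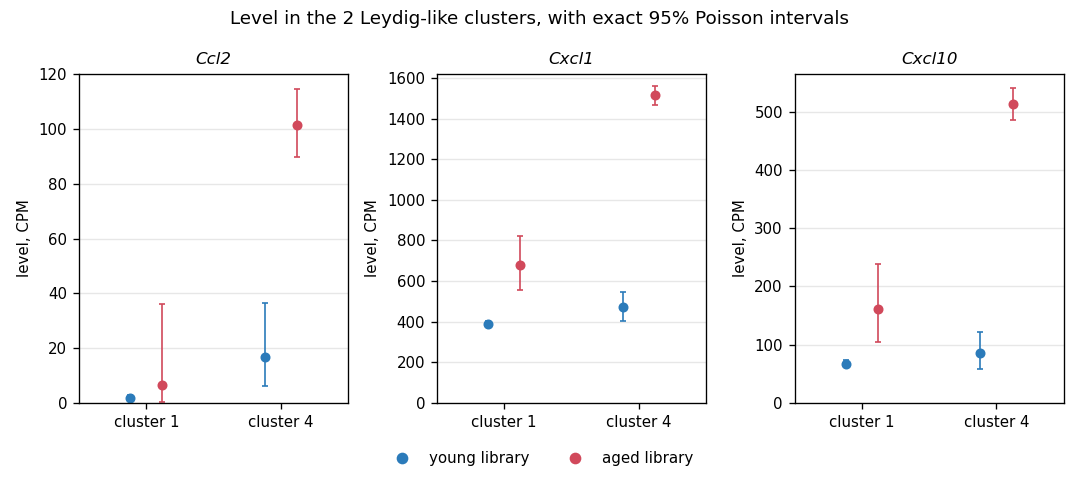
Level of Ccl2, Cxcl1 and Cxcl10 in CPM (linear axes from 0) in the 2 Leydig-like clusters, for the young and aged libraries, with exact 95% Poisson intervals. In cluster 4 the aged cells lay at 101.6, 1514 and 513 CPM and the young cells at 16.7, 470.4 and 86.3 CPM. The interval of Ccl2 in the aged cells of cluster 1 rests on 1 count.

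Macrophage RNA in the Leydig-like cells was measured beside these values. The summed level of the 16 macrophage markers in Leydig-like cells was 158 CPM for young and 78.3 CPM for aged cells, with 0 and 1 of the 16 markers at 0. In aged Leydig-like cells Ccl2 had 1161 counts (757 to 1863) per 100 counts of Lyz2, the lysozyme gene of macrophages. In aged macrophage-like cells it had 26.6 (24.6 to 28.7). For Cxcl2 the values were 170 (98.8 to 297) and 12.9 (11.6 to 14.4), and for Ccl7 95.7 (50.8 to 180) and 25.5 (23.5 to 27.6). In the aged library these 3 genes stood in far larger proportion to Lyz2 in Leydig-like cells than in macrophage-like cells. In aged germ cells the values were 35.4 (21.0 to 57.7) for Ccl2, 30.8 (17.7 to 51.5) for Cxcl2 and 15.4 (7.05 to 30.1) for Ccl7, under those of Leydig-like cells. Ccl8 in aged Leydig-like cells, at 126 (70.4 to 228), was also above macrophage-like cells, at 66.3 (62.6 to 70.2). It did not stand apart from aged germ cells, at 112 (79.3 to 159). In the young library Ccl8 was at 49.5 in Leydig-like, 17.8 in macrophage-like and 49.3 in germ cells.

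The 83 aged Leydig-like cells with Ccl2 had macrophage markers at 105 CPM, with 6 of 16 at 0, and the 494 without it at 73.0 CPM, with 2 of 16 at 0. The 13 young Leydig-like cells with Ccl2 had macrophage markers at 1978 CPM, against 131 CPM in the 1077 others. In the subset with no count of Ptprc, Csf1r, Adgre1, Cd68, C1qa, C1qb or C1qc (969 young and 550 aged cells), the aged over young ratio was 55.1 for Ccl2, 3.75 for Cxcl1 and 7.45 for Cxcl10. The ratios were as large in these cells as in all Leydig-like cells.

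Ccl2, Cxcl1 and Cxcl10 were found together in the same aged Leydig-like cells. Of the 83 cells with Ccl2, 97.6% (91.6 to 99.7) had Cxcl1 and 66.3% (55.0 to 76.3) had Cxcl10. Of the 494 cells without Ccl2, 70.8% (66.6 to 74.8) had Cxcl1 and 36.0% (31.8 to 40.4) had Cxcl10. Cells with Ccl2 were somewhat deeper, with a median of 5644 counts against 4659. With every cell thinned to 2000 counts the shares were 96.1% against 59.1% for Cxcl1 and 58.8% against 28.9% for Cxcl10. Cxcl10 was found in 42.6% (37.1 to 48.1) of thinned cells with Cxcl1 and 13.8% (9.28 to 19.4) of those without. In the young library these were 12.1% (9.01 to 15.7) and 4.28% (2.91 to 6.05). In both libraries Cxcl10 was found in a larger share of the cells with Cxcl1 than of those without, and most cells with Cxcl1 had no count of Cxcl10 after thinning.

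**Figure D4:**
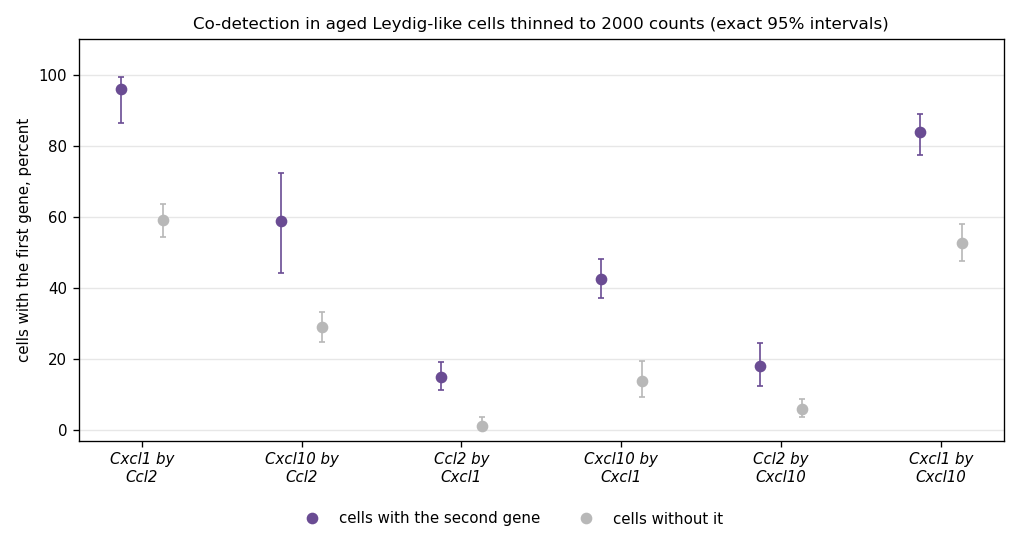
Percent of aged Leydig-like cells, each thinned to 2000 counts, that had the first-named chemokine among cells with and without the second, with exact 95% Clopper-Pearson intervals. Of 51 thinned cells with Ccl2, 96.1% had Cxcl1, against 59.1% of the 474 without it.

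In Leydig-like cells the dissociation and stress list was higher in cells with Cxcl1 or Ccl2 than in those without. This list of 20 immediate early and heat shock genes summed to 13932 CPM in aged Leydig-like cells with Cxcl1 and 9550 CPM in those without. In the young library the sums were 12241 and 7900 CPM. Cells with Ccl2 in the aged library had 15635 CPM and those without 12568 CPM. For Ccl8 in the aged library the sums were near each other, at 12969 and 13077 CPM. Over the whole class the list summed to 10261 CPM for young and 13074 CPM for aged cells, and 3 of its 20 genes (Atf3, Klf6 and Hspb1) were at least 2-fold higher and 0 lower, against 4.51% and 7.48% of all genes. In macrophage-like cells the list went the other way with Cxcl1. It summed to 19531 CPM in young cells with Cxcl1 and 26508 CPM in those without, and to 18897 and 28794 CPM in aged cells. By Cxcl10 the sums in aged macrophage-like cells were 19111 and 23929 CPM. The part of dissociation in the chemokine levels was not tested.

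Macrophage-like cells formed 2 clusters with different chemokines. Cluster 16 held 89 young and 0 aged cells and was led by Slc13a3 and Fcrls, with Ccl4 and Ccl3 among its 10 leading genes. Cluster 14 held 82 young and 129 aged cells and was led by Ccl8, Lyz2 and Cbr2. In cluster 16 Ccl3 was at 1992 CPM (1870 to 2119) and Ccl4 at 2878 CPM (2732 to 3031), and Ccl8 at 77.9 CPM (55.4 to 106). In the young cells of cluster 14 Ccl3 was at 55.0 CPM (37.4 to 78.1), Ccl4 at 8.88 CPM (2.88 to 20.7) and Ccl8 at 1573 CPM (1471 to 1680). Within the young library the 2 clusters were thus opposite in Ccl3 and Ccl4 against Ccl8. Ccl2 was at 657 CPM in cluster 16 and 476 CPM in cluster 14.

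Over all macrophage-like cells, 6 of 8 members were at least 2-fold higher in the aged library, against 11.3% of 10872 genes, and Ccl3 was at least 2-fold lower, against 13.2%. Cluster 16, which held young cells only, decides the direction of 2 genes. Ccl3 was at 966 CPM for young and 337 CPM for aged cells over both clusters (ratio 0.348, 0.294 to 0.411), and at 55.0 and 337 CPM in cluster 14 alone (6.12, 4.15 to 9.29). Ccl4 was at 1359 and 758 CPM over both clusters (0.558, 0.497 to 0.625), and at 8.88 and 758 CPM in cluster 14 alone (85.4, 36.3 to 264). In cluster 14 alone all 8 members were at least 2-fold higher, against 7.77% of 9729 genes, and 0 lower, against 7.14%.

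Cluster 14 held cells of 2 kinds, with and without Leydig transcripts. The summed level of the 12 Leydig markers fell into separate ranges on either side of 2000 CPM, a limit chosen after the values had been seen, with 1 young and 4 aged cells between 1000 and 3000 CPM. Leydig-poor cells numbered 38 young and 69 aged, with macrophage markers at 50129 and 41012 CPM and Leydig markers at 244 and 315 CPM. Leydig-rich cells numbered 44 and 60, with macrophage markers at 14528 and 12871 CPM and Leydig markers at 20025 and 13162 CPM. Doublets called by Scrublet had been removed before, and whether a remaining barcode held more than 1 cell was not tested. In the Leydig-rich cells all 8 members were at least 2-fold higher in the aged library, against 7.66% of 8249 genes, and 0 lower, against 8.24%.

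In the Leydig-poor macrophage-like cells Ccl2, Ccl7 and Ccl8 were higher in the aged library. Ccl2 was at 887 CPM (752 to 1039.8) for young and 2674 CPM (2420.2 to 2947) for aged cells, a ratio of 3.01 (2.496 to 3.65). Ccl7 was at 1015 and 2963 CPM, a ratio of 2.92 (2.45 to 3.50), and Ccl8 at 3411 and 6924 CPM, a ratio of 2.03 (1.83 to 2.25). Ccl8 was found in 92.1% of young cells and 92.8% of aged ones, at median depths of 4448 and 1952 counts, and after thinning, which left out 35 of the 69 aged cells, in 84.2% and 97.1%. Cxcl2 was at 46.4 CPM (20.03 to 91.4, 8 counts) and 1504 CPM (1316 to 1712, 229 counts), a ratio of 32.4 (16.2 to 76.0). It was found in 13.2% of young cells and 58.0% of aged ones.

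Ccl3 was at 122 CPM (75.4 to 186) in the young and 532 CPM (423 to 661) in the aged Leydig-poor cells, a ratio of 4.37 (2.68 to 7.43). Ccl4 had 0 counts in 38 young and 146 counts in 69 aged cells (959 CPM), at least 55.1-fold higher with 3 counts in the young cells as the floor. Cxcl1 rested on 7 young and 37 aged counts (40.6 and 243 CPM). Cxcl10 went the other way, with 191 CPM for young and 85.4 CPM for aged cells (0.446, 0.216 to 0.871). Of the 33 young counts of Cxcl10, 32 came from 1 cell. By size, 7 of 8 members were at least 2-fold higher, against 13.5% of 5337 genes, and 1 lower, against 11.4%. The cells of this subset had median depths of 4448 and 1952 counts, and thinning to 2000 counts left 38 young and 34 aged cells, of which 5.26% and 55.9% had Cxcl2, and 55.3% and 82.4% Ccl2.

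**Figure D5:**
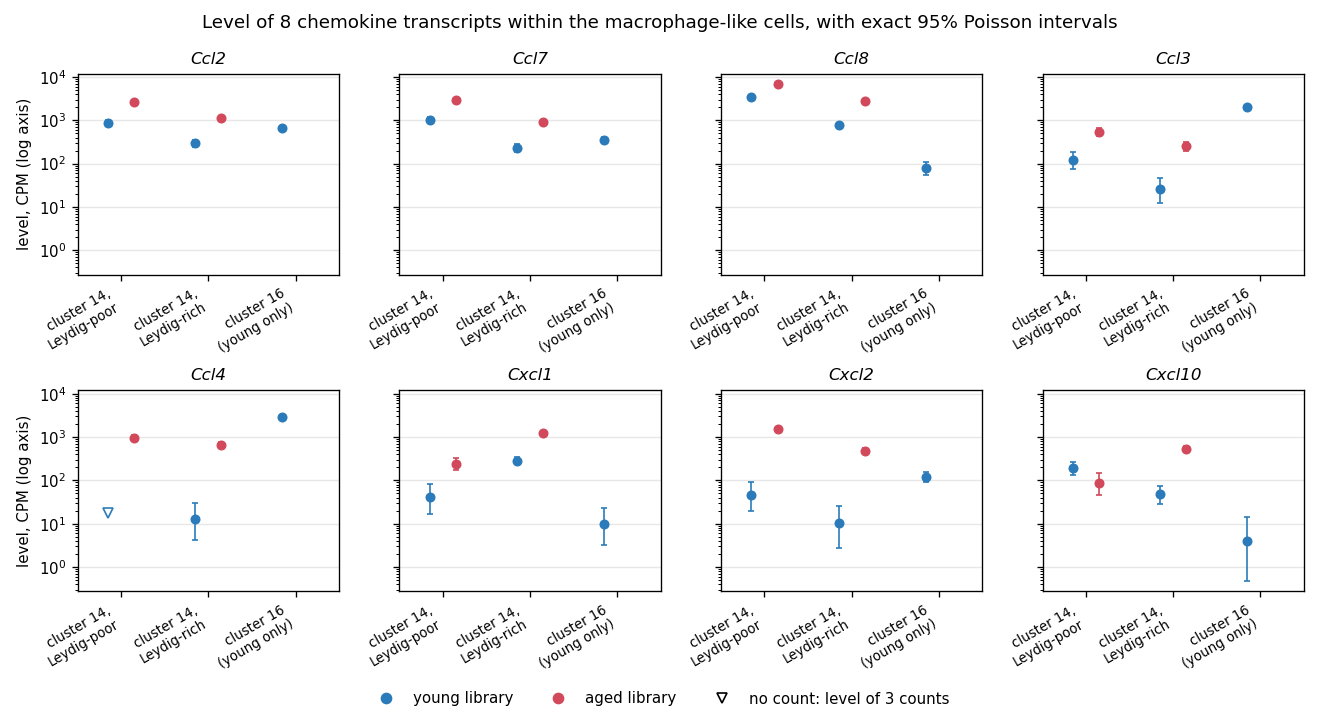
Level of each chemokine in CPM (log axis) in the Leydig-poor and Leydig-rich cells of macrophage-like cluster 14 and in cluster 16, which held young cells only, with exact 95% Poisson intervals. The triangle marks 0 counts, drawn at the level of 3 counts. Cxcl2 lay at 46.4 and 1504 CPM in the young and aged Leydig-poor cells, and Cxcl10 at 191 and 85.4 CPM.

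Cxcl1 went with the Leydig markers within the macrophage-like cells. Young macrophage-like cells with Cxcl1 had Leydig markers at 18514 CPM and those without at 3597 CPM, and in the aged library the sums were 11551 and 3863 CPM. Per 100 counts of Cyp17a1, the steroid 17-alpha-hydroxylase of Leydig cells, Cxcl1 had 3.43 counts (2.81 to 4.15) in young Leydig-rich cells and 3.74 (3.60 to 3.87) in young Leydig-like cells. In the aged library the values were 27.2 (24.3 to 30.3) and 22.1 (21.4 to 22.9). The intervals overlapped in the young library and not in the aged one, where the Leydig-rich cells were higher. For Cxcl10 the values were 0.588 (0.353 to 0.919) in young Leydig-rich and 0.644 (0.591 to 0.701) in young Leydig-like cells, and 11.7 (9.98 to 13.7) and 7.44 (7.04 to 7.86) in the aged ones. Young Leydig-poor cells had more Cxcl10 (191 CPM, 32 of 33 counts in 1 cell) than young Leydig-rich cells (48.6 CPM). In Leydig-poor cells Cxcl1 had 87.5 (27.0 to 276) and 206 (114 to 384), on 8 and 18 counts of Cyp17a1. The class-wide macrophage levels of Cxcl1 (116 and 921 CPM) and Cxcl10 (50.8 and 391 CPM) include the Leydig-rich cells. The Leydig-poor cells of both clusters, 127 young and 69 aged, had 5 of 8 members at least 2-fold higher, against 17.5% of 8443 genes, and 2 lower (Ccl3 and Ccl4), against 19.1%.

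Pairs of related ligands were found in the same macrophage-like cells. In cluster 16, 64 of 73 cells with Ccl3 also had Ccl4 (87.7%, 77.9 to 94.2), against 6 of 16 without Ccl3 (37.5%). In young cells of cluster 14 none of 11 cells with Ccl3 had Ccl4. In the aged cells of cluster 14, 32 of 42 cells with Ccl3 had Ccl4 (76.2%, 60.5 to 87.9), against 39.1% of the 87 without. Ccl7 was found in 50 of 57 aged Leydig-poor cells with Ccl2 (87.7%, 76.3 to 94.9) and in 2 of 12 without. In young Leydig-poor cells it was 16 of 23 (69.6%, 47.1 to 86.8) and 4 of 15. The intervals of the young cells with and without Ccl2 overlapped. After thinning to 2000 counts the shares of Ccl4 by Ccl3 in cluster 16 were 82.8% and 44.0%. Those of Ccl7 by Ccl2 in aged Leydig-poor cells were 82.1% (63.1 to 93.9) and 3 of 6 cells (11.8 to 88.2%), with overlapping intervals.

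Fibroblast-like cells, which build the connective tissue between the tubules, were too few in the young library for more than a few values. Ccl2 had 29 counts in 2 of 17 young cells and 6 counts in 4 of 130 aged cells (375 and 29.8 CPM, ratio 0.0794, 0.0269 to 0.195). One young cell held 22 of those counts, and the macrophage markers in fibroblast-like cells summed to 1216 CPM for young and 69.5 CPM for aged cells. Cxcl1 had 29 counts in 7 of 17 young and 42 counts in 23 of 130 aged cells (375 and 209 CPM, ratio 0.556, 0.338 to 0.925). These cells had only 2 and 3 counts of Cyp17a1, so that Cxcl1 stood at 1450 (367 to 12541) and 1400 (447 to 7061) counts per 100 of it, above the proportion in Leydig-like cells. No member was at least 2-fold higher, against 12.2% of 5254 genes, and 1 of the 2 with 10 or more counts was lower, against 9.06%. In the Sertoli-like cells, the nurse cells of the tubules (8 young and 56 aged), Ccl8 had 1 count in each library and the other 7 genes none.

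In germ cells no member passed 3 CPM in either library. Of 7 members with 10 or more counts in spermatocyte-like cells, 1 was at least 2-fold higher, against 8.47% of genes, and 2 lower, against 5.73%. In round spermatid-like cells 3 of 7 were higher, against 3.21%, and 2 lower, against 4.12%, and in elongating spermatid-like cells 1 of 1 was higher, against 5.37%, and 0 lower, against 4.42%. Cxcl1 was at 2.15 CPM for young and 2.74 CPM for aged cells. Ccl3 was at 0.555 and 0.0879 CPM and Ccl4 at 1.04 and 0.264 CPM, lower in the aged library as in macrophage-like cells of both clusters together. Cxcl10 was at 0.121 and 0.597 CPM, higher in the aged library as in Leydig-like cells. Within germ cells Cxcl1 had 5.13 counts per 100 of Cyp17a1 when young and 31.9 when aged, against 3.74 and 22.1 in Leydig-like cells.

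Ccl2, Ccl7, Ccl8, Ccl3, Ccl4 and Cxcl2 were highest in macrophage-like cells of both libraries, although for Ccl2 in the young library the intervals of macrophage-like (517 to 608 CPM) and fibroblast-like cells (251 to 539 CPM) overlapped. Leydig-like cells followed for Ccl2 and Cxcl2 in the aged library and fibroblast-like cells for Ccl2, Ccl7 and Ccl8 in the young library. The young fibroblast-like values rest on only 17 cells. They had 29 counts of Ccl2, most of them in a single cell, 6 of Ccl7 and 4 of Ccl8. For Cxcl1 the young Leydig-like (393 CPM) and fibroblast-like cells (375 CPM) did not differ beyond their intervals, while in the aged library the order was Leydig-like, macrophage-like and fibroblast-like cells. For Cxcl10 the order was Leydig-like, macrophage-like, fibroblast-like and germ cells in both libraries, but in the young library the intervals of the first 3 overlapped. The place of aged macrophage-like cells in both orders rests largely on the Leydig-rich cells. These held 420 of their 457 Cxcl1 counts and 181 of their 194 Cxcl10 counts.

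Of 30 other chemokine ligands, 10 had 10 or more counts in Leydig-like cells, of which 3 were at least 2-fold higher and 1 lower in the aged library, against 4.51% and 7.48% of all genes. Cxcl12, which holds stem cells and lymphocytes in their niches, was at 319 and 272 CPM. Cxcl16 was at 42.0 and 22.4 CPM, and Cx3cl1, the membrane-bound ligand fractalkine, at 26.3 and 18.8 CPM. The B cell chemokine Cxcl13 was at 3.15 and 11.9 CPM. Its aged level was higher in macrophage-like cells of cluster 14. Leydig-poor cells there had 0 young and 21 aged counts (138 CPM when aged), and Leydig-rich cells were at 2.56 and 69.8 CPM. In Leydig-poor macrophage-like cells of cluster 14 the interferon-gamma target Cxcl9, a further ligand of Cxcr3, was at 1346 and 46.0 CPM (0.0342), with 232 counts in 10.5% of the 38 young cells and 7 counts in 2.90% of the 69 aged cells. Pf4, platelet factor 4, was at 1659 and 1360 CPM, and Ccl6 at 98.6 and 309 CPM. Ccl12 was at 400 and 466 CPM, a ratio of 1.17 (0.825 to 1.65), and thus did not differ beyond its interval.

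Receptors were few in Leydig-like cells, where 5 of 23 had 10 or more counts, 0 were higher and 2 lower in the aged library, against 4.51% and 7.48% of all genes in Leydig-like cells. Ackr3, a scavenger receptor of Cxcl12, was at 14.5 and 11.9 CPM. In Leydig-poor macrophage-like cells Cx3cr1, the fractalkine receptor, and Cxcr4, named after their values were seen, differed in opposite directions. Cx3cr1 was at 1062 and 348 CPM (0.328) and Cxcr4, the signalling receptor of Cxcl12, at 11.6 and 204 CPM (2 and 31 counts). Ccrl2, an atypical receptor, was at 17.4 and 92.0 CPM (3 and 14 counts).

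Genes of the signals known to switch on these chemokines, including inhibitors such as Nfkbia and Tnfaip3, were measured as a list of 31 genes. In Leydig-like cells 26 had 10 or more counts, 8 were at least 2-fold higher and 0 lower in the aged library, where 4.51% and 7.48% of all genes were. The median log2 ratio was 0.63, against -0.04 over all genes. Nfkbia, the inhibitor of NF-kB that NF-kB itself induces, was at 71.5 and 344 CPM (4.81). Irf1, an interferon regulatory factor, was at 177 and 709 CPM (4.01), Tnfaip3, an NF-kB target that limits its signal, at 4.03 and 20.6 CPM (5.10), and Cebpb at 146 and 312 CPM (2.13). The receptors Il1r1 (49.6 and 67.1 CPM), Tnfrsf1a (85.7 and 98.8 CPM) and Ifngr1 (15.6 and 10.1 CPM) differed by less than 2-fold. Within cluster 4 the ratio was 3.73 for Nfkbia and 3.10 for Irf1. These genes, unlike the chemokines, were not held out of the clustering.

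In Leydig-poor macrophage-like cells 26 genes of that list had 10 or more counts, 6 were higher and 3 lower, against 13.5% and 11.4% of all genes. Tnfaip3 was at 226 and 762 CPM (3.37) and Nfkbia at 429 and 1031 CPM (2.40). Il1b, a cytokine that induces Cxcl1 in many cells, had 5 and 15 counts (29.0 and 98.5 CPM), and Il1a 0 and 16 counts. Tnf was at 365 and 447 CPM, and at 775 CPM in cluster 16.

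Likeness of pattern was measured over the 14 classes of a library with 15 or more cells, as Pearson's r of log2(CPM + 1) among 20237 genes. These points share libraries and differ in depth, and no p is given. For Ccl2 the 3 most alike genes were Map3k8 (r = 0.976), Pid1 (0.964) and Ifi27l2a (0.962). For Ccl7 they were Folr2 (0.983), Lfng and Cbr2, and for Ccl8 Pla2g2d (0.975), Plek and Serpinb8. Il10 (0.997), Il10ra and Cd300a were most alike to Ccl3, and Slc11a1 (0.988), Ncf1 and Cd300a to Ccl4. For Cxcl1 they were Mocs1 (0.978), Gm44386 and C1qtnf6, for Cxcl2 Plaur (0.984), H2-K2 and Naip2, and for Cxcl10 Dcxr (0.975), Tmem164 and Amacr.

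Among single aged Leydig-like cells thinned to 2000 counts (525 cells, 5188 genes), detection of Cxcl1 went most with Cxcl10 (phi = 0.299), then Btg2, Irf1, Pim1 and Nfkbia. Irf1 was found in 70.5% of cells with Cxcl1 and 43.4% of those without, and Nfkbia in 52.3% and 28.1%. For Ccl2 (51 cells) the genes were Rcan1 (phi = 0.237), Pim1, Cxcl1, Mcl1 and Hes1. In 171 young macrophage-like cells Ccl3 went most with Ccl4 (phi = 0.647), Itgal, Ndrg1 and Cd52, and Ccl4 with Itgal (0.701), Ndrg1, Ccl3, Cd52 and Slamf9. The macrophage values compare the cells of clusters 16 and 14.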

How the data were processed

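Cells of 1 young and 1 aged library were grouped by the age in the labels. The authors deposited 1 table of whole-number counts per gene and cell for each library. The BD Rhapsody pipeline 1.7.1 with STAR 2.5.2b is named per the file headers of the aged table, and Cell Ranger 2.11 and mm10 per the submitters' processing notes. Whether counts are molecules or reads is not given in the sources used here. A cell was kept from 500 counts and 200 genes upward unless mitochondrially encoded genes took over 25% of its counts, and doublets called by Scrublet were removed (36 young and 123 aged). Clustering used scanpy 1.11.5 and leidenalg 0.10.2 (2000 variable genes, 40 principal components, 15 neighbours, resolution 1), with no batch correction and without chemokine ligand and receptor genes. A cluster was named from a mean z of its markers of 0.5 or more with 3 or more markers up. Levels (CPM) are summed counts scaled to a total of 1e+06, with exact Poisson intervals, ratios have exact conditional binomial intervals and shares Clopper-Pearson intervals. These cover counting error only. They were tested on counts simulated under the same counting model, which does not test an uneven spread of counts over cells. With 1 library per age no p-value was computed. A ratio was read for genes with 10 or more counts over both libraries, and a size of 2-fold was counted. All 8 members were named, other ligands, receptors and upstream genes by rule at 10 or more CPM in a class, and exceptions are marked. The members and lists were chosen with earlier results of these data known. Alternatives changed the filters, doublets, resolution, clustering genes, naming, thinning, totals, free RNA, cell subsets and the size counted. Values of some genes are not reported here.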

Additional observations from a re-analysis of the deposited data

Results flagged for a closer look

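Cluster 20, which stayed unnamed and entered no comparison, held 19 aged cells and 1 young cell and was led by the antigen presentation genes H2-Aa, Cd74 and H2-Eb1. Its aged cells had Ccl2 at 208 CPM (6 counts), Ccl4 at 208 CPM (6 counts), Cxcl2 at 899 CPM (26 counts) and Cxcl10 at 173 CPM (5 counts), each above the level of 3 counts. Ccl2 had an aged over young ratio of 40.3 in Leydig-like and 2.88 in macrophage-like cells but 0.0794 in fibroblast-like cells, where 2 of 17 young cells held all 29 young counts. The difference between the classes was not tested.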

How the results depend on the processing

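Of 685 values recomputed for 54 results, 566 stayed within the limits set for a like value, 116 moved and 3 reversed. A reversal was counted for ratios of 2-fold or more in size that crossed 1. These were Ccl3 in macrophage-like cells, with a ratio of 6.12 in cluster 14 alone and 4.37 in its Leydig-poor cells, and Cxcl10, with 0.446 in the Leydig-poor cells. Smaller ratios crossed 1 too: Ccl4 in macrophage-like cells (0.558) was at 85.4 in cluster 14 alone, Ccl4 in Leydig-like cells (0.521) reached 4.26 with at most 10% mitochondrially encoded counts, Ccl7 in germ cells (1.82) was at 0.450 with doublets kept, and Cxcl1 in fibroblast-like cells (0.556) reached 1.01. Both restrictions to macrophage subsets and the single Leydig-like clusters were chosen after seeing the data, as was the Leydig-like subset with a macrophage marker level of 0. In Leydig-like cluster 1 alone the ratio was 3.77 for Ccl2 and 1.75 for Cxcl1, with 2 members higher and 0 lower, and 2.63% and 57.9% of aged cells had Ccl2 and Cxcl1. In cluster 4 alone the ratios were 6.08 and 3.22, with 0 members lower and 7.41% of young cells with Ccl2. Thinning gave a Cxcl1 ratio of 3.38 and 0 members lower in Leydig-like cells, shares of 0.459% and 9.71% for Ccl2 and 35.7% and 62.7% for Cxcl1, and 1 member higher and 0 lower in germ cells. The lowest young total applied to both libraries gave 80.0% of aged cells with Cxcl1, 100% of those with Ccl2, and 2 members lower in macrophage-like cells. Members lower in Leydig-like cells numbered 2 with chemokine genes used for clustering and at 1.5-fold. They numbered 0 at 4-fold, with 50 or more counts (3 higher), without the 7 macrophage genes, and at a macrophage marker level of 0, where 46.7% of young cells had Cxcl1. In fibroblast-like cells 2 members were lower with doublets kept, and 1 was higher and 0 lower with classes from each cell's marker score. Macrophage-like cells had 2 members lower with Leydig markers under 2000 CPM and 0 in cluster 14 alone. In that cluster and in its Leydig-poor cells 0.0% of young cells with Ccl3 had Ccl4. The causes were not tested. No paired analysis was possible because each age has 1 library.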
